A study of Mus musculus with 6 samples.

Results

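The Rab small GTPases were taken as every mouse gene whose symbol is Rab followed by a number and at most 2 further characters that mark the paralog. The rule matched 59 gene symbols out of the name table, and 55 of them occurred among the 32348 gene identifiers of the linear transcript files. The values of Rab18, Rab43, Rab4a and Rab4b in the linear transcriptome were not analysed here, while all 59 symbols were looked up among promoters and circle hosts. RNA labelled as hippocampus came from 14-month-old male C57BL/6 mice that had received a subcutaneous injection every morning for 14 days. The injection held either dihydrotestosterone (DHT), an androgen that aromatase does not turn into oestrogen, or medical corn oil as vehicle. Each group had 3 libraries, and the descriptions also call the DHT libraries the testosterone group. Whether a library stands for 1 animal is not stated in the labels. If libraries of a group repeat the same RNA, the p-values below cover technical spread only. If libraries are pools of animals, the p-values cover the spread between pools. For the linear transcripts the files give FPKM (fragments per kilobase and M mapped reads) per first exon, last exon or splicing event. For circular RNAs they give back-splice junction reads and linear reads at the same place. A gene value below is the larger of the summed first exons and the summed last exons of a gene in a library.

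Rab proteins are molecular switches of membrane traffic. Bound to GTP, a Rab sits on a particular membrane and recruits effectors such as tethers, motors and sorting proteins; bound to GDP, it is drawn back into the cytosol by a dissociation inhibitor. Exchange factors turn a Rab on, GTPase-activating proteins turn it off, and geranylgeranyl lipids at its end hold it in the membrane. In neurons the Rab3 proteins act on synaptic vesicles, Rab5 on early endosomes, Rab11 on recycling endosomes that serve dendritic spines, and Rab7 on late endosomes and lysosomes.

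The libraries held 43512 to 55325 back-splice junction reads out of 143 to 177 M mapped reads. Gene FPKM summed to 94871 to 96063 in the DHT libraries and 87148 to 89596 in the oil libraries, so counts of genes are also given after each library was centred on its median. In bulk RNA, fewer cells of a type and less RNA per cell cannot be told apart. Of 9 markers of striatal projection neurons, Drd1 was listed at 0 in every library, and the 9 summed to 185 to 349 FPKM under DHT and 266 to 297 under oil. The 6 markers of hippocampal principal cells summed to 13.3 to 23.4 FPKM under DHT and 18.4 to 21.5 under oil, with Lct listed at 0 throughout. Neuronal markers summed to 422 to 669 FPKM under DHT and 528 to 626 under oil, lowest in DHT library 1, where Snap25 was at 150 FPKM against 295 to 376 in the other libraries. Red blood cell markers, 4 genes, summed to 347 to 1039 FPKM under DHT and 193 to 358 under oil. Microglial markers summed to 16.7 to 21.1 FPKM under DHT and 22.0 to 24.1 under oil, and oligodendrocyte markers to 363 to 440 and 307 to 376. Marker sums of astrocytes (241 to 270 and 250 to 261), vessels (28.1 to 29.9 and 28.9 to 32.2) and choroid plexus (18.3 to 55.7 and 25.3 to 108) overlapped. Of the marker sums before these, all but the microglial ones overlapped as well. No gene of any marker list passed an adjusted p of 0.05 in limma, and the part of cell makeup in the Rab values was not tested.

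Rab3a and Rab6b were the most abundant Rab transcripts in every library. Rab3a, the main Rab of synaptic vesicles, averaged 93.3 FPKM over the 6 libraries, and Rab6b, the neuronal form of the Golgi Rab6, averaged 83.4 FPKM. Together they made up 30.1% of all Rab FPKM, and the 8 most abundant members made up 62.1%. Behind these came Rab6a at 47.2 FPKM, Rab7 at 42.1, Rab2a at 28.4, Rab1b at 24.6, Rab15 at 23.1 and Rab3c at 22.6. Of the 55 members, 16 had a mean above 10 FPKM and 25 above 5 FPKM.

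At the low end, Rab17, Rab20, Rab25, Rab39 and Rab42 were listed at 0 in all 6 libraries. Rab17 and Rab25 are known from epithelia. Another 7 members had a mean below the 0.5 FPKM needed for testing: Rab19, Rab32, Rab37, Rab38, Rab39b, Rab44 and Rab7b. Rab39b, a neuronal gene linked to intellectual disability, was listed at 1.41 FPKM in oil library 2 and at 0 in the other libraries, and an exact 0 in such files can be a failed estimate. The 43 remaining members were tested. Between the most and the least abundant of the 43 the mean level differed 148-fold.

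**Figure D1:**
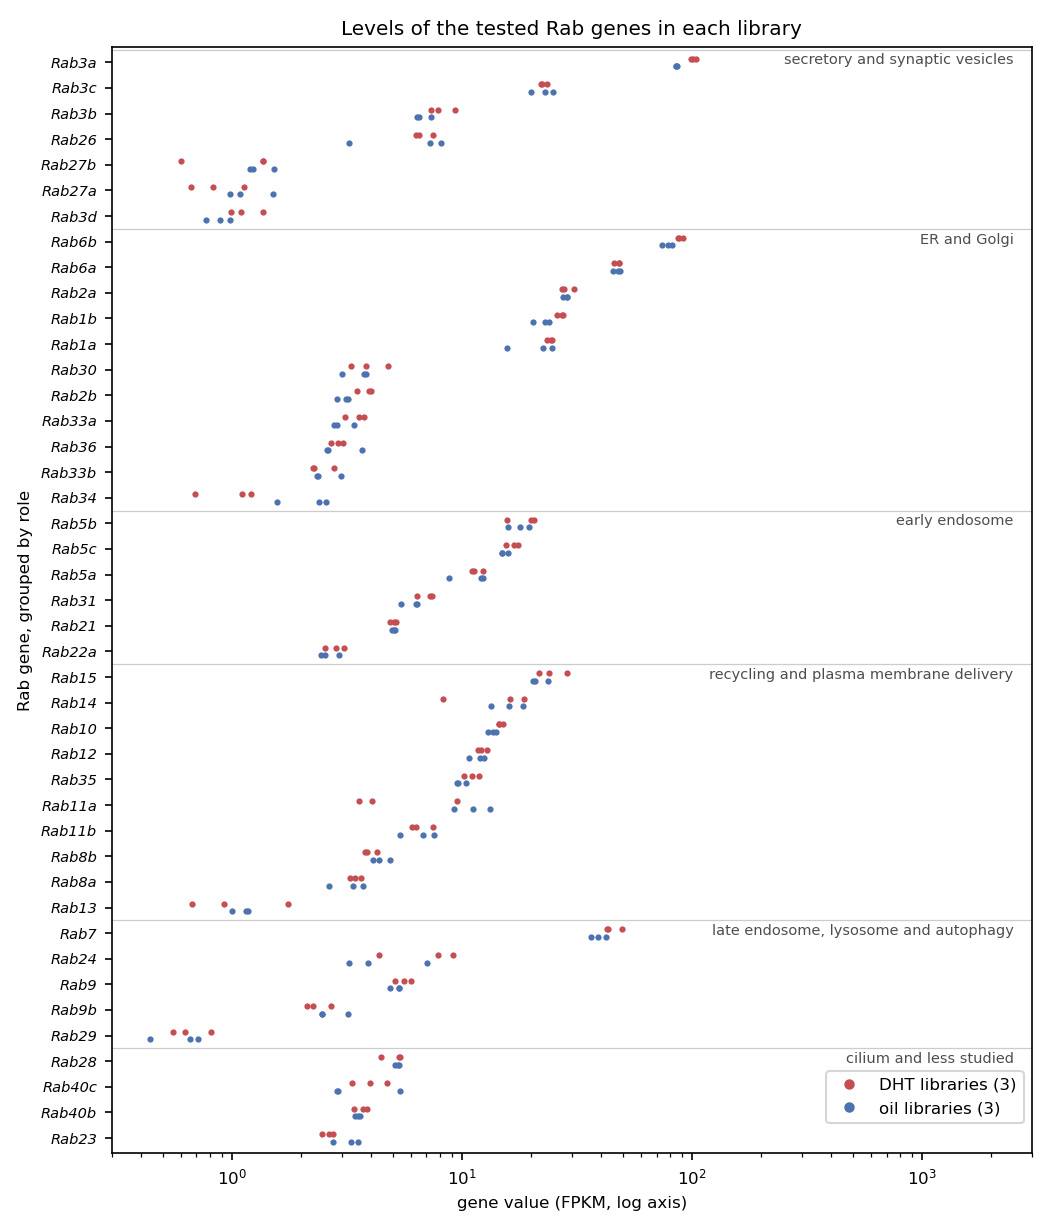
Gene value of each of the 43 tested Rab genes (FPKM, log axis) in the 3 DHT libraries (red) and the 3 oil libraries (blue), with genes grouped by role and ordered by mean level. Rab3a and Rab6b stand highest, between 74.3 and 104 FPKM, and the colours do not overlap for 10 of the 43 genes, Rab3a and Rab34 among them.

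Libraries of a group differed to unequal degrees from member to member. The coefficient of variation within a group, pooled over both groups, had a median of 10.7% over the 43 tested members. It was lowest for Rab3a at 1.84% and highest for Rab11a at 42.9%, and it was above 30% for 5 members, Rab40c, Rab26, Rab13, Rab24 and Rab11a. The summed last exons were within 10% of the summed first exons for 26 of 43 members. For 5 members, Rab2b, Rab33b, Rab34, Rab11a and Rab27b, the last exons summed to under 0.1 of the first exons, so that the gene value rested on first exons alone. Assembled loci ran into a neighbouring gene in some cases. Only 79.2% of the Rab1b value, 60.8% of the Rab26 value and 53.4% of the Rab13 value lay inside the RefSeq bounds of those genes. The last exon given to the Rab1b locus lies by Yif1a and Cnih2, part of the Rab26 locus lies in Traf7, and a first exon of the Rab13 locus lies in Rps27. Reads shared with an overlapping gene, an antisense gene or a close copy cannot be told apart from a member's own here.

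Promoter sequences are shown for where Rab transcripts began and for motifs tied by name to androgen receptor and to lysosomal genes. RefSeq promoters (GRCm38.p6, 250 bases before to 50 bases after the start) matched 48 of the 59 members with 60 windows. The Rab windows had a median GC content of 61.2% and a median of 19.5 CpG, against 52.7% and 7 over all 32851 windows. The GC box GGGCGG, searched on both strands like every motif here, was in 68.3% of the Rab windows and 35.7% of all windows. TATAAA was in 6.67% and 13.6%. AGAACA, part of the androgen receptor motif, was in 18.3% of the Rab windows and 19.0% of all windows, and the full androgen response element, with both parts in inverted order, was in 0 of the Rab windows and 0.00913% of all. The CLEAR element, a palindrome known from promoters of lysosomal genes, was in 3 of 60 Rab windows (5% against 0.326% of all), those of Rab5a, Rab21 and Rab24. It contains the E-box core CACGTG, which was in 10% of the Rab windows and 7.15% of all. A match describes letters, not a bound site.

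The 5 sequences below run from 200 bases before the RefSeq start to 10 bases from it, written 5′ to 3′ on the gene's strand. Capitals mark the CLEAR element in Rab5a (chr17:53479034-53479243, plus strand), Rab21 (chr10:115315582-115315791, minus strand) and Rab24 (chr13:55321971-55322180, minus strand). They mark the GC box on the opposite strand in Rab3a (chr8:70754503-70754712, plus strand), the most abundant member. In Rab11a (chr9:64737747-64737956, minus strand), the member with the lowest fold change, they mark AGAACA.
Rab5a: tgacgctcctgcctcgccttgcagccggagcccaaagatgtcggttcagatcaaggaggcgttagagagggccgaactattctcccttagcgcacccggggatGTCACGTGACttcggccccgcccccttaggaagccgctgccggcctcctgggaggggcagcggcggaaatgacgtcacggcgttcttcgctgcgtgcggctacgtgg
Rab21: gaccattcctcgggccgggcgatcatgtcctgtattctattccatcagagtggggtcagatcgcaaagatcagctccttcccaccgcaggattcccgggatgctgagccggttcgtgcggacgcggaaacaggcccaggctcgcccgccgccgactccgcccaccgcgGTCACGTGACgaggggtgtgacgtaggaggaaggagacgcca
Rab24: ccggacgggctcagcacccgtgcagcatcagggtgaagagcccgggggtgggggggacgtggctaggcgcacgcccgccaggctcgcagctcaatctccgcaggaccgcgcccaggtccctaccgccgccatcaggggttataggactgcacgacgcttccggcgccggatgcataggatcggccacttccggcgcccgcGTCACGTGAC
Rab3a: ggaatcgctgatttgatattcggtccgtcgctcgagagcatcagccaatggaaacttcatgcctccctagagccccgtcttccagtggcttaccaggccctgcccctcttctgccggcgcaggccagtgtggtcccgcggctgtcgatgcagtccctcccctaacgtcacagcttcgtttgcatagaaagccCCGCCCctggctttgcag
Rab11a: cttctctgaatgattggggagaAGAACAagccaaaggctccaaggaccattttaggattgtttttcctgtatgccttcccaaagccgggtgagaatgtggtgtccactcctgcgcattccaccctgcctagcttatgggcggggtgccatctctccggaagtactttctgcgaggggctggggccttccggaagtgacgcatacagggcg
The CLEAR letters begin 97 bases before the RefSeq start in Rab5a, 32 bases before it in Rab21 and at the start itself in Rab24. The deposited first exons of Rab5a and Rab21 begin exactly at the RefSeq start used here. For Rab21 this is not the outermost RefSeq start, since its RefSeq bounds reach farther upstream, to chr10:115317419. Gene values were 8.77 to 12.4 FPKM for Rab5a and 4.86 to 5.14 FPKM for Rab21. The abundant first exon of Rab24, chr13:55321538-55322476, spans the whole Rab24 sequence above, so it begins farther upstream. Rab3a had a pair of first exons, beginning at 70754679 and 70754711, and both starts lie within the sequence above.

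Between DHT and oil, none of the 43 tested Rab genes passed an adjusted p of 0.05 in limma, where 2 of 11368 genes did (0.0176%). The adjusted p of the Rab genes ran from 0.652 to 0.9898. At an unadjusted p under 0.05 there were 5 of 43, against 7.34% of all genes: Rab3a, Rab2b and Rab1b stood higher under DHT (5.79% of all genes did), and Rab11a and Rab34 stood lower (1.55%). After centring there were 3, against 6.03% of all genes in both directions together. These 3, Rab11a, Rab34 and Rab23, all stood lower, and the share of all genes lower at that p after centring was not counted. The log2 fold change was above 0 for 30 of 43 Rab genes and for 63.6% of all genes, and after centring for 24 of 43 and 51.4%. The median log2 fold change was 0.08 over the Rab genes and 0.07 over all genes tested, so the members as a list stood where genes in general stood. A difference of a typical member came with a 95% interval of 0.30 to either side on the log2 scale.

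The groups did not overlap for 10 of the 43 Rab genes (15.1% of all genes). Of these, 8 stood higher in every DHT library, Rab10, Rab1b, Rab2b, Rab31, Rab3a, Rab3d, Rab6b and Rab7, against 12% of all genes. The other 2, Rab23 and Rab34, stood lower in every DHT library, against 3.15% of all genes. After centring the number was 9, with 4 higher (Rab1b, Rab2b, Rab3a and Rab6b; 6.97% of all genes) and 5 lower (Rab11a, Rab21, Rab23, Rab34 and Rab8b; 6.08%).

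**Figure D2:**
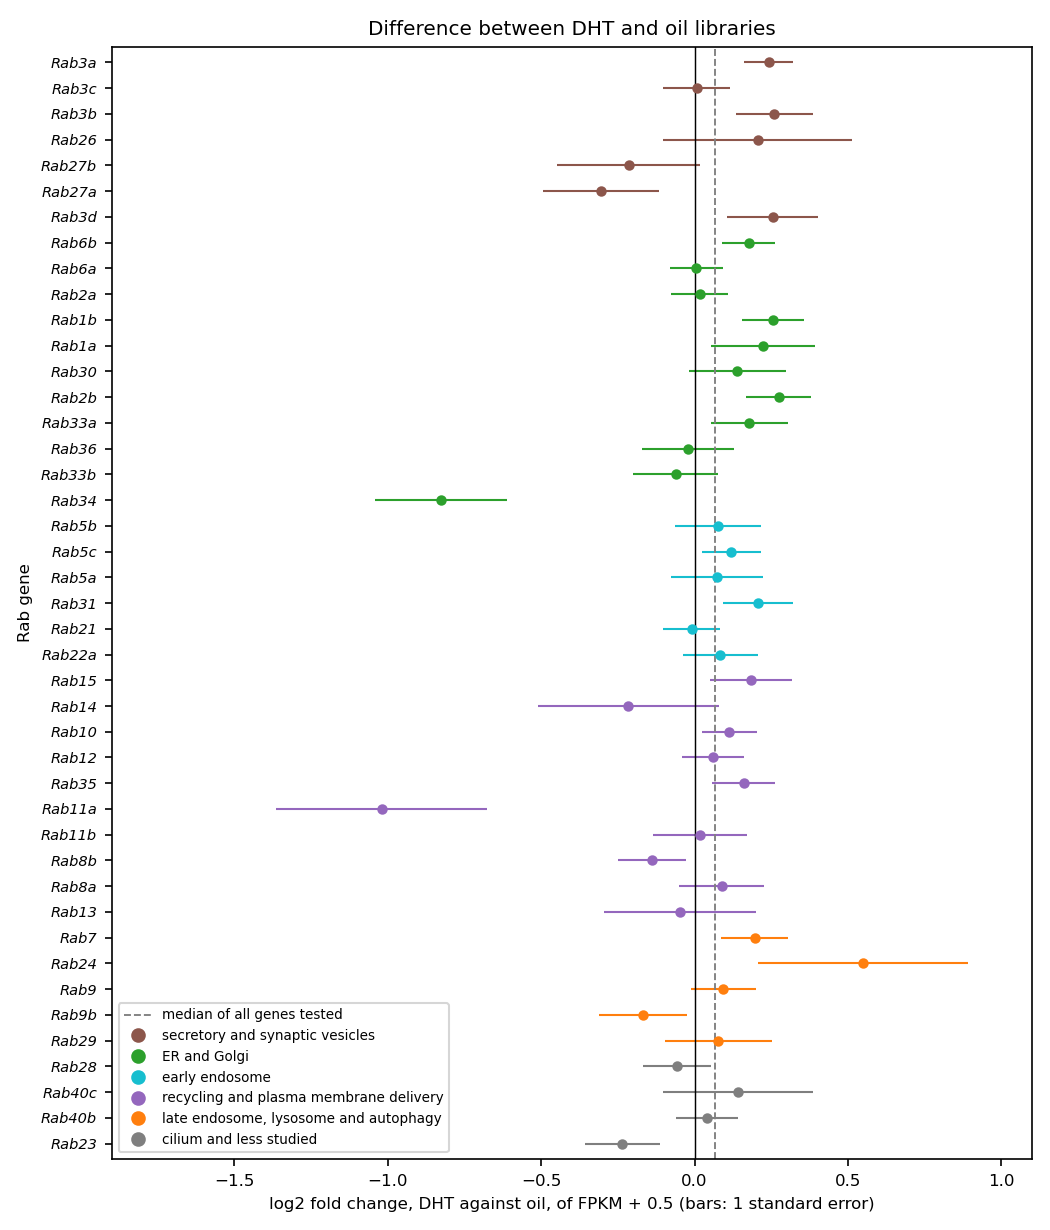
Log2 fold change of DHT against oil for the 43 tested Rab genes on the log2(FPKM + 0.5) scale, with bars of 1 standard error, colours by role and a dashed line at the median of all genes tested (0.07). Rab11a (-1.02) and Rab34 (-0.83) lie farthest below the line and Rab24 (0.55) farthest above it.

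Among the Rabs of secretory and synaptic vesicles, Rab3a and its paralogs held nearly all transcripts. Rab3a measured 101, 104 and 98.6 FPKM in the 3 DHT libraries and 86.0, 85.1 and 85.3 in the oil libraries. Every DHT library was above every oil library, and the gap was wide against the spread in either group. The log2 fold change was 0.24 with a standard error of 0.08 (limma unadjusted p = 0.0206, adjusted p = 0.656), and it was 0.18 after centring. Rab3b, an isoform of few neuron types, measured 7.30, 9.35 and 7.88 FPKM under DHT and 6.51, 7.32 and 6.34 under oil, and its groups overlapped at 7.30 and 7.32 (log2 fold change 0.26, standard error 0.13, limma adjusted p = 0.665; 0.16 without DHT library 2). Rab3c measured 22.0, 22.3 and 23.4 FPKM under DHT and 24.7, 23.0 and 19.9 under oil, with the oil libraries on both sides of the DHT ones. Rab3d, a minor isoform, averaged 1.15 ± 0.19 FPKM (SD, n = 3) under DHT and 0.879 ± 0.10 (SD, n = 3) under oil, without overlap. Rab27a, which docks secretory granules and lysosome-related organelles, measured 0.666, 0.824 and 1.12 FPKM under DHT and 1.09, 0.977 and 1.51 under oil. Its groups overlapped (log2 fold change -0.30, standard error 0.19, limma adjusted p = 0.714), and with 1 library left out the fold change ran from -0.43 to -0.17 (without oil library 3). Summed over the 8 members of this role, values were 140, 145 and 141 FPKM under DHT and 124, 126 and 124 under oil, and the sum is mostly Rab3a.

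ER and Golgi Rabs held the highest summed FPKM of the 6 roles, at 227 to 237 FPKM under DHT and 204 to 223 under oil, without overlap on this scale. Rab6b measured 91.6, 87.4 and 86.5 FPKM in the DHT libraries and 82.1, 78.6 and 74.3 in the oil libraries, again without overlap (log2 fold change 0.18, standard error 0.09, limma adjusted p = 0.671). Rab6a, its widely expressed paralog, measured 48.1, 48.3 and 45.6 FPKM under DHT and 47.5, 45.3 and 48.6 under oil, and the groups were intermixed. Both act in traffic from and to the Golgi.

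Rab1b, which carries cargo from the ER to the Golgi, measured 27.3, 27.5 and 25.8 FPKM under DHT and 22.9, 24.0 and 20.4 under oil. Its groups did not overlap (log2 fold change 0.26, standard error 0.10, limma adjusted p = 0.658). Because its last exon lies by other genes, the exons inside the RefSeq bounds were also summed alone. They came to 23.0, 22.1 and 20.5 FPKM under DHT and 18.4, 16.3 and 16.8 under oil. That difference, 0.34 on the log2 scale, was of the same sign (limma unadjusted p = 0.0119, adjusted p = 0.642). Rab2b, also of the early secretory pathway, measured 3.51, 3.997 and 3.93 FPKM under DHT and 2.87, 3.20 and 3.13 under oil, without overlap (log2 fold change 0.27, standard error 0.11, limma adjusted p = 0.658). Its far more abundant paralog Rab2a measured 27.7, 30.7 and 27.3 FPKM under DHT and 28.7, 28.7 and 27.3 under oil, and these overlapped.

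Rab34, a Golgi and cilium Rab, had the smallest unadjusted p of the members. It measured 1.21, 0.688 and 1.11 FPKM under DHT and 2.38, 1.56 and 2.57 under oil. All 3 DHT libraries were below all 3 oil libraries (log2 fold change -0.83, standard error 0.21, limma unadjusted p = 0.00653, adjusted p = 0.652). The gene value is the sum of first exons of which none led in every library. The chromosome 11 first exon starting at 78188779 held 41.8%, 80.4% and 85.5% of the value under DHT and 27.2%, 64.2% and 37.8% under oil.

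Early endosome Rabs summed to 59.1 to 63.4 FPKM under DHT and 57.0 to 59.0 under oil. Of the 6 tested members 5 had a fold change above 0, against 63.6% of all genes. Rab5a, Rab5b and Rab5c, which govern fusion of early endosomes, all had overlapping groups, with mean levels of 11.3, 18.2 and 15.9 FPKM. Rab31, a Rab5 relative on endosomes and the trans-Golgi, stood at 6.38 to 7.36 FPKM under DHT and 5.40 to 6.34 under oil. Rab21, which serves integrin recycling, varied least in this role, between 4.86 and 5.14 FPKM over all libraries.

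Rab11a gave the lowest fold change of all the members, and its libraries disagreed most. This Rab of the recycling endosome measured 4.04, 9.54 and 3.57 FPKM under DHT and 11.2, 13.2 and 9.17 under oil. DHT libraries 1 and 3 were below every oil library, while DHT library 2 lay within the oil range. The log2 fold change was -1.02 with a standard error of 0.34 (limma unadjusted p = 0.0215, adjusted p = 0.656). Without DHT library 2 it was -1.43 (limma adjusted p = 0.286), and the value nearest to 0 with 1 library left out was -0.78. Its last exons were listed at 0 in all oil libraries and in DHT library 2, so these values come from its first exons. Rab11b, its near relative, had a mean of 6.61 ± 0.77 FPKM (SD, n = 3) under DHT and 6.56 ± 1.13 (SD, n = 3) under oil. From first exons alone the Rab11b means were 6.61 ± 0.77 and 4.82 ± 2.24 FPKM (SD, n = 3). Oil library 2 stood at 2.36 FPKM on that measure.

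Among the other Rabs of recycling and delivery to the plasma membrane, only Rab10 had groups that did not overlap. Rab15, a neuronal Rab of the early and recycling endosome, measured 28.7, 23.8 and 21.6 FPKM under DHT and 23.7, 20.4 and 20.7 under oil, with overlap (log2 fold change 0.18, standard error 0.13, limma adjusted p = 0.747). With 1 library left out the fold change of Rab15 ran from 0.07 (without DHT library 1) to 0.27. Rab8b, which delivers cargo to the plasma membrane and cilium, measured 3.79, 3.87 and 4.27 FPKM under DHT and 4.10, 4.84 and 4.36 under oil, with overlap (log2 fold change -0.14, standard error 0.11, limma adjusted p = 0.758). After centring, every DHT library was below every oil library. Rab10, which serves GLUT4 delivery and axon growth, stood at 14.5 to 15.1 FPKM under DHT and 13.0 to 14.0 under oil, without overlap as deposited and with overlap after centring (log2 fold change 0.11, standard error 0.09, limma adjusted p = 0.759). Rab14 swung between 8.24 and 18.5 FPKM within the DHT group alone. The role as a whole summed to 93.6, 104 and 95.7 FPKM under DHT and 103, 103 and 91.6 under oil.

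Rab7, which drives late endosomes to lysosomes, measured 49.7, 42.5 and 42.9 FPKM in the DHT libraries and 42.2, 36.3 and 39.1 in the oil libraries. The groups did not overlap, by a narrow margin between DHT library 2 and oil library 1 (log2 fold change 0.20, standard error 0.11, limma adjusted p = 0.693; 0.12 without DHT library 1). Its last exon was listed in oil library 2 only, at 35.6 FPKM, and at 0 elsewhere, so the value rests on first exons. Rab24, an atypical Rab linked to autophagy, had the highest fold change of the members, 0.55, with libraries from 4.34 to 9.09 FPKM under DHT and 3.24 to 7.05 under oil. Those ranges overlapped widely. Rab9, which returns receptors from late endosomes to the Golgi, averaged 5.55 FPKM under DHT and 5.16 under oil, also with overlap.

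Rab23, which restrains Hedgehog signalling at the cilium, measured 2.73, 2.63 and 2.47 FPKM under DHT and 3.28, 3.51 and 2.74 under oil. DHT library 1 and oil library 3 nearly met, and no library crossed over (log2 fold change -0.24, standard error 0.12, limma adjusted p = 0.680). Rab28, Rab40b and Rab40c, of the same group, had overlapping values.

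The Rab genes together summed to 616, 614 and 603 FPKM under DHT and 579, 570 and 545 under oil, a ratio of 1.08, with each DHT library above each oil library (exact permutation test, two-sided, p = 0.1, the smallest that 3 against 3 can give). With last exons only, the sums were 542, 544 and 519 FPKM under DHT and 503, 540 and 477 under oil. Those groups overlapped, with a ratio of 1.06 (exact permutation p = 0.2). As a percentage of the FPKM of all genes in a library, the Rab genes held 0.640 ± 0.010 (SD, n = 3) under DHT and 0.642 ± 0.014 (SD, n = 3) under oil (exact p = 0.9), a ratio of 0.997. Set against all genes, the groups overlapped. Of the 6 role sums, 4 did not overlap between groups (secretory, ER and Golgi, early endosome and late endosome), and each had an exact permutation p of 0.1 and an adjusted p of 0.15 over the 6 sums. As a percentage of all gene FPKM, 1 of 6 did not overlap, the secretory role, at 0.148, 0.151 and 0.148 under DHT and 0.139, 0.145 and 0.142 under oil (exact permutation p = 0.1, adjusted p = 0.6). On that scale the ER and Golgi Rabs averaged 0.244 ± 0.0063 under DHT and 0.243 ± 0.0087 under oil (SD, n = 3).

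Close paralogs were set against each other, since such a share does not depend on a library's overall FPKM. In the Rab11 pair, Rab11a held 40.1%, 56.0% and 36.2% of the summed FPKM under DHT and 62.4%, 63.5% and 63.2% under oil. All DHT libraries were below all oil libraries. The Rab11b value of oil library 2 came from its last exons (7.58 FPKM, against 2.36 over its first exons) and that of every other library from first exons. With first exons throughout, the Rab11a share of oil library 2 was 84.8% in place of 63.5%, and the groups still did not overlap. Rab6a held 34.4%, 35.6% and 34.5% of the Rab6 pair under DHT and 36.7%, 36.5% and 39.6% under oil, lower in each DHT library. Rab2a held 88.8%, 88.5% and 87.4% of the Rab2 pair under DHT and 90.9%, 89.9% and 89.7% under oil, likewise without overlap. These 3 of 16 shares had the smallest exact permutation p possible, 0.1 (two-sided), and an adjusted p of 0.533 over the 16. In the Rab3 family Rab3a held 76.9%, 75.9% and 75.3% under DHT and 72.9%, 73.1% and 75.9% under oil, with oil library 3 among the DHT values. The Rab1, Rab5, Rab8, Rab9, Rab27, Rab33 and Rab40 families showed overlapping shares.

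**Figure D3:**
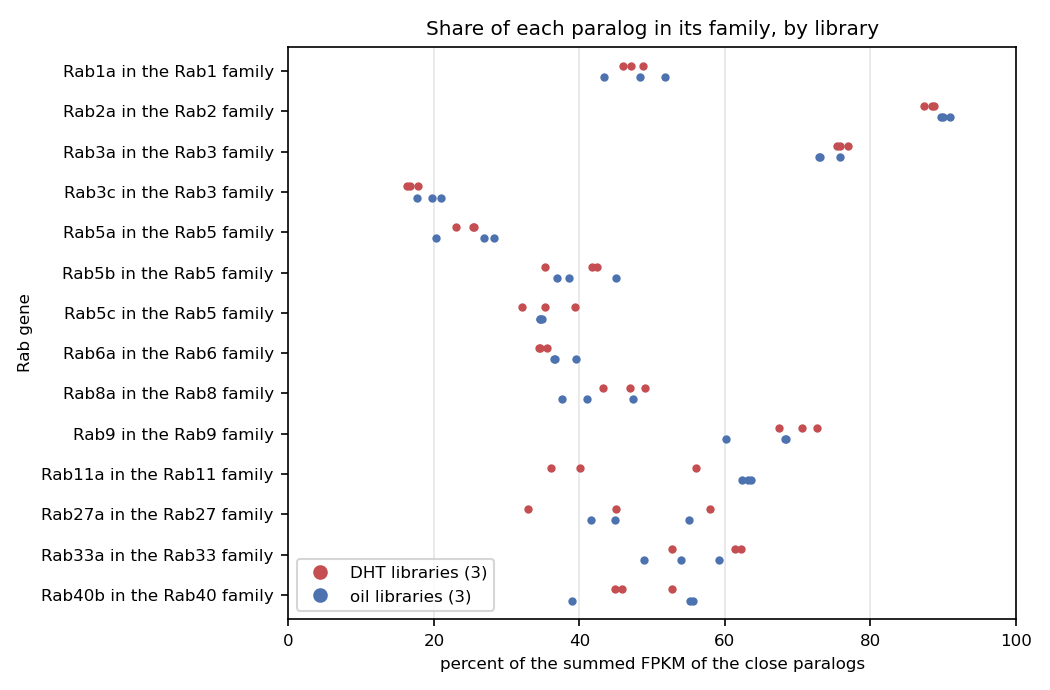
Percent of the summed FPKM of close paralogs held by the gene named on the left, in each DHT (red) and oil (blue) library. The Rab11a points of the DHT libraries lie at 36.2 to 56.0% and those of the oil libraries at 62.4 to 63.5%, while most other pairs of colours overlap.

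Alternative first exons could be compared in 9 members with at least 2 of them above 10% of the gene's FPKM. Rab13 and Rab26 are among the 9, but an exon of each (starting at 90212673 and 24527766) lay outside the gene's RefSeq bounds. For Rab3a, the first exon starting at 70754711 held 67.7%, 69.2% and 70.0% under DHT and 65.1%, 65.9% and 71.4% under oil. The more abundant start was thus the same in every library, with overlapping shares. Rab36, a Golgi Rab, used its longer first exon for 65.4%, 49.7% and 60.6% under DHT and 68.5%, 67.7% and 66.9% under oil, lower in each DHT library (exact permutation p = 0.1, adjusted p = 0.9 over 9 members). Rab11b and Rab40c switched between starts from library to library: the Rab11b exon starting at 33760223 held 98.6%, 25.4% and 42.1% under DHT and 30.5%, 89.9% and 98.8% under oil. Neither group had a steady share there.

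Splicing choices within Rab loci were rarely measurable. Of 180 listed pairs of inclusion and skipping events in members, 59 pairs of 17 members passed the minimum of 1 FPKM for both sides together, and none passed an adjusted p of 0.05 in limma, against 5 of 30033 (0.0166%) over all loci. Unadjusted, 3 of 59 had p under 0.05, 1 in Rab1a and 2 in Rab36, against 4.82% of all pairs. Only 6 pairs, in Rab24, Rab26, Rab28 and Rab7, had at least 0.5 FPKM on both sides. Most of the tested pairs assigned to Rab26 lay outside its RefSeq bounds (chr17:24529054-24533747), so they are not splicing choices of Rab26 itself. The intron at chr17:24510075-24510249, among the 6 pairs, is such a case. In 11 pairs the inclusion side was listed at 0 in every library, so that their ratio follows the gene level only.

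The pair with the smallest p leaning toward inclusion under DHT was a multi-exon block of Rab1a (chr11:20218813-20223179), included at 100%, 100% and 100% under DHT and 98.9%, 99.0% and 100% under oil. Its skipping form was at most 0.258 FPKM in any library (limma unadjusted p = 0.0299, adjusted p = 0.912). Next came retained introns of the Rab26 locus. The one at chr17:24510371-24510456 was kept in 39.1%, 32.8% and 54.1% under DHT and 11.8%, 31.0% and 13.8% under oil, without overlap, but it lies in Traf7. The intron at chr17:24530120-24530391 was kept in 39.8%, 35.1% and 49.7% under DHT and 35.3%, 22.8% and 33.1% under oil (limma adjusted p = 0.912), and here DHT library 2 and oil library 1 touched.

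In the other direction, retained introns of Rab36 were seen in few libraries. The stretch chr10:75048513-75050638 was kept in 15.4% in oil library 2 and 45.3% in oil library 3 and listed at 0 elsewhere. The longer stretch chr10:75048513-75051918 was kept in 32.6% in oil library 2 alone. Each had a limma adjusted p of 0.912. Inclusion of a Rab11a exon (chr9:64728234-64728429) was 100%, 99.2% and 100% under DHT and 99.0%, 100% and 98.6% under oil, so that its fold change followed the gene level. A cassette exon of Rab7 (chr6:88015632-88015718) was at 9.49%, 0.0186% and 0.0509% under DHT and 10.03%, 0.0173% and 10.4% under oil. In this pair DHT library 1 and oil libraries 1 and 3 carried it at 9.49% or more, and the other libraries at 0.0509% or less. Another tested pair of the same exon listed its inclusion at 5.68 FPKM in oil library 3 and at 0 elsewhere. Inclusion in the pair above was 3.20 FPKM in oil library 3, so 10.4% leaves out part of the exon's signal there.

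Circular RNAs arose from 9 of the 59 Rab genes. The 9 hosts gave 17 circles, 15 exonic and 2 intronic, with 497 of all 286240 junction reads. The other 50 members had no circle listed, Rab3a among them, although it was the most abundant Rab transcript. Rab11a, rank 17 by gene FPKM, gave the most circular reads, 247, followed by Rab6b with 145 and Rab2a with 57. Rab31, Rab6a, Rab5a, Rab23, Rab12 and Rab10 gave 2 to 15 reads each. A circle enters the lists with 2 or more reads, so a circle not listed can still hold 1 read. Over all circles the Rab hosts gave 88, 101 and 66 reads under DHT and 66, 90 and 86 under oil (exact permutation test, two-sided, p = 0.8).

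The main Rab circle came from Rab11a (chr9:64725502-64728429, minus strand, a span of 2928 bases) and held 47.5% of all Rab circle reads. It had 39, 52 and 33 reads in the DHT libraries and 28, 34 and 50 in the oil libraries, and the groups were intermixed (edgeR log2 fold change 0.01, standard error 0.30, adjusted p = 1; from -0.19 to 0.35 with 1 library left out). The main Rab6b circle (chr9:103160820-103163903) had 24, 15 and 9 reads under DHT and 11, 13 and 13 under oil, with DHT library 1 highest and DHT library 3 lowest (edgeR log2 fold change 0.23, standard error 0.41, adjusted p = 0.996; -0.11 without DHT library 1). The main Rab2a circle (chr4:8577955-8582493) had 7, 11 and 13 reads under DHT and 7, 7 and 3 under oil (edgeR log2 fold change 0.77, standard error 0.56, adjusted p = 0.996). Library 1 of each group had the same count.

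A second Rab6b circle shares its 3′ end with the main one and begins farther upstream (chr9:103140382-103163903, a span of 23522 bases). It had 0, 6 and 3 reads under DHT and 9, 6 and 12 under oil. As normalised reads per M junction reads it stood at 0, 121 and 65.8 under DHT and at 184, 130 and 283 under oil, which made it the only 1 of the 5 tested Rab circles without overlap (11.1% of all tested circRNAs). The log2 fold change was -1.65 with a standard error of 0.86 (edgeR unadjusted p = 0.0764, adjusted p = 0.996), and with 1 library left out it ran from -2.58 (without DHT library 2) to -1.05. The intronic Rab6b circle (chr9:103160820-103167192) had 4, 5 and 6 reads under DHT and 0, 5 and 4 under oil. Below the minimum of 20 reads for testing, a longer Rab11a circle (chr9:64716806-64728429) had 6, 3 and 0 reads under DHT and 0, 2 and 0 under oil. A Rab6a circle (chr7:100626552-100639495) had 5 and 6 reads in oil libraries 1 and 2 and was not listed elsewhere. None of the 5 tested Rab circles passed an adjusted p of 0.05, nor did any of 2524 circRNAs in edgeR (0.0%), where 79 (3.13%) and none of the Rab circles had an unadjusted p under 0.05. DESeq2 likewise called 0 (0.0%), with 2.89% of all and none of the Rab circles at that unadjusted p.

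**Figure D4:**
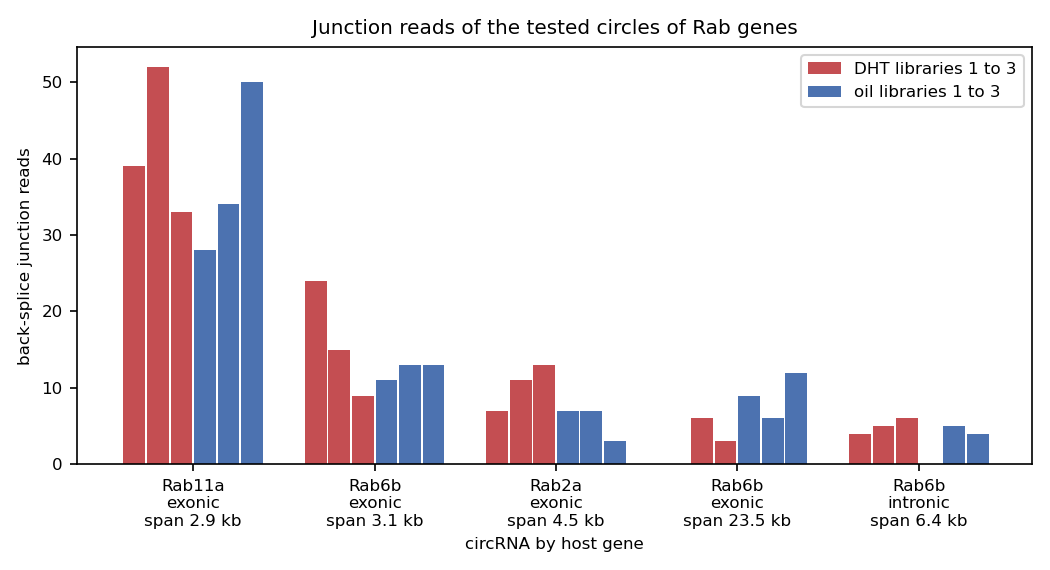
Back-splice junction reads of the 5 tested circles of Rab hosts, each with a bar per library (red, DHT libraries 1 to 3; blue, oil libraries 1 to 3) and its type and genomic span below. The Rab11a circle has 28 to 52 reads in every library, and the Rab6b circle of the longest span has 0 to 6 reads under DHT and 6 to 12 under oil.

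Against the linear reads at the same place, the 3 main circles differed widely in how much of the signal was circular. Over the 6 libraries the circular form made up 17.6% at the Rab2a circle, 5.14% at Rab11a and 0.330% at Rab6b. Among 1581 circles listed in every library the median was 5.04%. By rank, Rab2a was at the 86.2th percentile, Rab11a at the 50.8th and Rab6b at the 1.17th. The Rab2a share rests on 225 linear reads, against 4357 at Rab11a, although the gene value of Rab2a was higher (28.4 against 8.45 FPKM). Its rank may thus reflect a low linear count at that place, which was not tested. In single libraries the Rab11a share was 4.38%, 6.00% and 4.97% under DHT and 3.98%, 4.85% and 6.51% under oil. With Wilson 95% intervals such as 3.22 to 5.93% for DHT library 1 and 4.97 to 8.48% for oil library 3, these shares overlapped. Such intervals cover counting error only.

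For the hosts of these 3 circles the linear reads gave another reading of the gene. At Rab11a they came to 4.80, 4.88 and 4.40 per M mapped reads under DHT and 4.25, 4.33 and 4.59 under oil, a ratio of 1.07, where the gene FPKM had a ratio of 0.511. The libraries that stood lowest by FPKM, DHT libraries 1 and 3, did not stand lowest by linear reads. Rab6b had 29.4, 28.3 and 26.6 linear reads per M mapped reads under DHT and 27.8, 25.2 and 23.3 under oil, a ratio of 1.11 beside 1.13 by FPKM, with oil library 1 above DHT library 3. Rab2a had 0.226, 0.258 and 0.272 under DHT and 0.145, 0.279 and 0.237 under oil, few reads in every library. In edgeR none of the 3 passed an adjusted p of 0.05 (adjusted p of 0.434 for Rab6b, 0.784 for Rab11a and 0.861 for Rab2a), against 15 of 1573 (0.954%) over all circles.

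**Figure D5:**
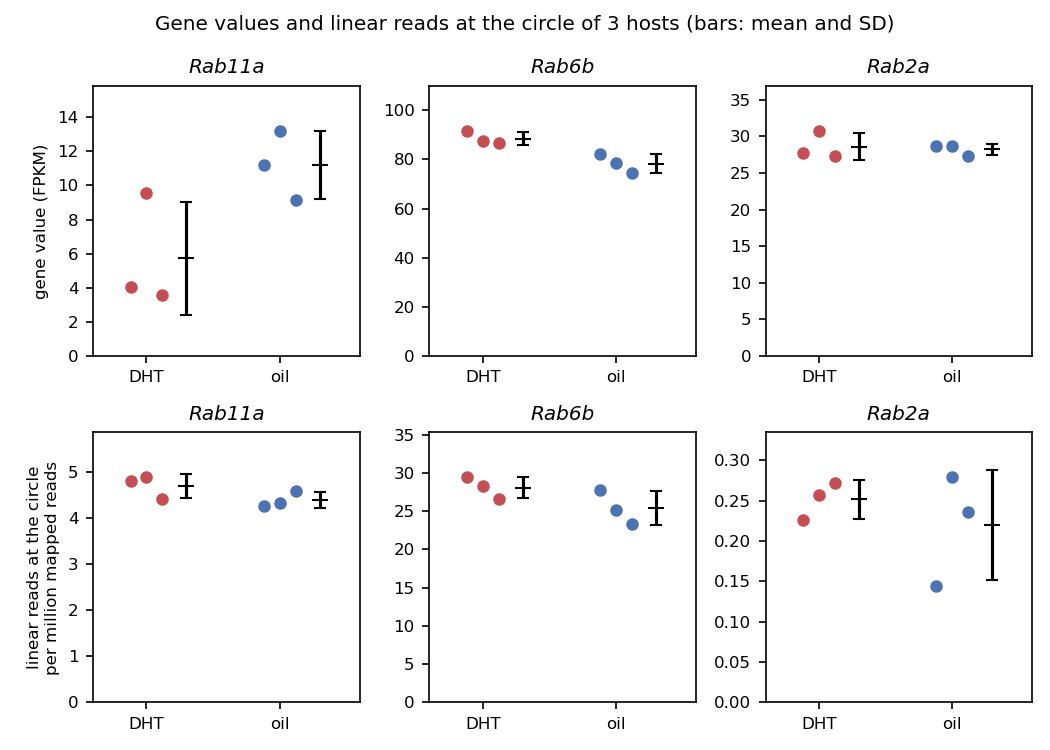
Gene value in FPKM (top) and linear reads at the main circle per M mapped reads (bottom) for Rab11a, Rab6b and Rab2a, with 1 point per library and black marks for mean and SD of 3 libraries. For Rab11a the 2 measures differ: the DHT to oil ratio is 0.511 by FPKM and 1.07 by linear reads.

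The partners of Rab proteins were read from lists of genes for prenylation and membrane extraction, activation, inactivation and effectors. No gene of the 4 lists passed an adjusted p of 0.05 in limma. Of 5 tested genes for prenylation and extraction, 3 had a fold change above 0, and 2 after centring (63.6% and 51.4% of all genes). Rabac1, a Rab acceptor of the Golgi, measured 11.9, 14.2 and 10.8 FPKM under DHT and 10.2, 9.04 and 10.2 under oil, and Gdi2, a GDP dissociation inhibitor, measured 16.8, 15.8 and 15.7 under DHT and 18.3, 17.1 and 17.4 under oil. Both had groups that did not overlap, in opposite directions.

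Among 27 activators, 14 had a fold change above 0 and 13 after centring (63.6% and 51.4% of all genes). Their median log2 fold change was 0.03, beside 0.07 over all genes. Ric1, part of the exchange factor for Rab6, measured 3.73, 5.09 and 4.65 FPKM under DHT and 6.61, 6.96 and 6.24 under oil. It stood lower in each DHT library (log2 fold change -0.52, standard error 0.13, limma adjusted p = 0.652). Dennd6a, an exchange factor for Rab14, measured 3.33, 2.68 and 2.77 FPKM under DHT and 2.26, 1.77 and 1.77 under oil, higher in each DHT library.

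Among inactivators, 25 of 31 had a fold change above 0, against 63.6% of all genes, with a median of 0.13. After centring there were 22, against 51.4% of all genes, with a median of 0.07. Sgsm2, a GTPase-activating protein, measured 8.87, 11.4 and 9.53 FPKM under DHT and 7.49, 7.97 and 6.35 under oil (limma adjusted p = 0.656). Tbc1d8b, of the same enzyme family, measured 0.613, 0.491 and 0.470 FPKM under DHT and 0.772, 0.790 and 0.807 under oil, lower in each DHT library.

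Of 44 effectors 25 had a fold change above 0, against 63.6% of all genes, with a median of 0.06. After centring there were 21, against 51.4% of all genes, with a median of -0.0049. Rab11fip3, an effector of Rab11, measured 11.9, 10.3 and 10.9 FPKM under DHT and 8.11, 8.27 and 8.81 under oil. Every DHT library was higher (log2 fold change 0.37, standard error 0.10, limma adjusted p = 0.652), while Rab11a itself stood lower by FPKM in 2 of 3 DHT libraries. Syn1, a synaptic vesicle protein that binds Rab3a, measured 72.1, 65.2 and 65.4 FPKM under DHT and 57.5, 58.0 and 55.2 under oil, without overlap. Circles of these partners were tested in edgeR in 3, 22, 17 and 37 cases in the order of the lists. Of these, 0 were called, as over all 2524 circRNAs (0.0%). Among the activators 1 had an unadjusted edgeR p under 0.05, against 3.13% of all circRNAs.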

How the data were processed

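RNA of 6 libraries (3 DHT, 3 oil, grouped by the treatment label) was read from deposited tables. FPKM values were deposited by the authors per first-exon, last-exon or splicing event, per the file headers. The authors deposited circRNA junction counts and linear counts, listing circRNAs from 2 reads up. A deposited score, the authors' SRPBM rounded down, served only to derive mapped reads (143 to 177 M), per the labels' protocols. Per the submitters' processing notes the tools included BWA, HISAT2 2.0.1, cutadapt and bcl2fastq 2.17.1.14, and the build was mm9, but 99.5% of circRNAs with a known host lay inside that gene's GRCm38 bounds, so coordinates are given as GRCm38. The sources used here do not name the circRNA caller, the assembler or how linear reads were counted.

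Of the identifiers, 99.7% matched a symbol. Genes averaging 0.5 FPKM or more entered limma 3.58.1 (R 4.3.3, trend) on log2(FPKM + 0.5), a scale that understates the change of low genes. Splicing pairs were tested in the same way, as the log2 ratio of both sides with 0.5 added, where their mean sum was at least 1 FPKM. circRNAs of at least 20 reads, and linear reads of at least 60 at circles listed in all libraries, entered edgeR 4.0.16 (TMM scaling, quasi-likelihood test), and DESeq2 1.42.0 was the alternative. P-values were adjusted by Benjamini-Hochberg over all features. Single values had exact two-sided permutation tests (scipy 1.17.1). The methods were run on simulated data with known changes, and the share of changes recovered is not reported here. Alternatives changed the pseudocount, the minimum levels, the exons summed, the centring, the count tool and the libraries included. Members named with every library were the 8 most abundant, the 5 with the smallest p in each direction, the 6 circles with most reads, and the 3 circles and 3 splicing pairs with the smallest p in each direction; from each partner list the 2 genes with the smallest p. Other members were named after their values were seen, mostly for non-overlap or extremes. The members, lists and motifs were chosen with earlier results of these data known. Sequences are from RefSeq (GRCm38.p6).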

Additional observations from a re-analysis of the deposited data

How the results depend on the processing

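Precision was limited by 3 libraries a group and by few reads at most Rab circles. The count of Rab genes, Rab circles, Rab splicing pairs and linear counts at Rab circles past an adjusted p of 0.05 stayed at 0 under every alternative run. Rab genes at an unadjusted p under 0.05 went from 5 to 3 with centred libraries and with last exons only, to 2 without DHT library 2 and oil library 3 together, and to between 2 and 5 without 1 library (2 without DHT library 3, oil library 1 or oil library 2, 3 without DHT library 2). Rab7 turned from 0.20 to -2.06 on the log2 scale with last exons only, which were listed above 0 in oil library 2 alone. Role sums without overlap went from 4 to 1 as a share of all gene FPKM. The ratio of summed Rab FPKM went from 1.08 to 0.997 as a share of all gene FPKM. Over all genes, 2 calls became 1 with a pseudocount of 0.1, with a mean of at least 2 FPKM, with exons inside RefSeq bounds and without DHT library 2 and oil library 3, became 0 with first exons only or last exons only, and ran from 0 to 4 without 1 library (4 without DHT library 2, 3 without oil library 3, 0 without any of the others). circRNAs called went from 0 to 6 with at least 6 reads and to 5 with no minimum, and ran from 0 to 1 without 1 library (1 without DHT library 2). Rab circles at an unadjusted p under 0.05 ran from 0 to 1, the 1 without DHT library 2. Linear reads at circles gave 15 calls, 9 without DHT library 2 and oil library 3, and 4 to 23 without 1 library (4 without oil library 1, 6 without oil library 2, 9 without oil library 3, 23 without DHT library 2). Splicing pairs called went from 5 to 1 with no minimum, to 0 without DHT library 2 and oil library 3, and to 0 without any 1 library. The cause of these shifts was not tested. The RefSeq-bound exons, the pair of libraries left out, the role shares and the paralog shares from first exons were chosen after seeing the data. No paired analysis was possible because the labels give the groups no shared replicate numbers.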
